A study of Homo sapiens with 12 samples.

Results

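The 37 genes described here act in homologous recombination, in the Fanconi anaemia pathway and in the ATM and ATR checkpoints. They were chosen by name for these functions, and the rule uses no measured value. Each gene was taken as the transcripts that carry its name and that Cufflinks classed either as a full match to an annotated transcript (class =) or as a new form sharing at least one splice junction with an annotated one (class j). This gave 779 transcripts for the 37 genes, out of 286562 transcripts of 56537 gene names in the deposited table. Of the 779, 612 were above 0 in at least 1 library and 250 had an FPKM above 0.5 in at least 3 libraries.

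HCT116 is an established epithelial line from a human colorectal carcinoma. Cells in the 0 h group were kept at 21% O2, and the other groups were held at 1% O2 for 1, 2 or 24 h, and the labels name no genotype or drug that differs between groups. Strand-specific poly(A) RNA was sequenced in 3 libraries at each of the 4 time points, 12 in all. The study's supplement calls the 3 libraries of a time point biological replicates. The labels do not say whether they come from separate cultures, so the p-values measure only the spread between these libraries. Nor do the sources used here say whether the 0 h cells were as old in culture as the 24 h cells, so hypoxia and time in culture cannot be told apart at 24 h.

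Homologous recombination repairs a broken chromosome from an intact sister copy. The broken ends are first trimmed to single strands, BRCA1, PALB2 and BRCA2 then prepare them for strand exchange, in which the matching sequence is found and copied. The Fanconi proteins open DNA crosslinks at stalled replication forks and hand the breaks to the same machinery, while the kinases ATM and ATR sense the damage and hold the cell cycle. Many of these genes are transcribed mainly in cycling cells, around S phase.

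Levels are given as FPKM, the sequenced fragments scaled to transcript length and to library size, summed over the transcripts of a gene. Read counts were not analysed here, so the depth behind a value is unknown and no counting interval is given. Pearson's r between libraries, across 16680 gene names that passed a filter of summed FPKM above 0.5 in at least 3 libraries, was 0.965 to 0.988 within a time point and 0.905 to 0.935 between 0 h and 24 h; gene names are not independent replicates. The epithelial markers KRT8 and KRT18 were abundant, with mean values at 0 h of 988 and 603 FPKM, while the leukocyte and endothelial markers stayed below the filter. Of the 5 epithelial markers tested, 2 were called higher at 24 h and 0 lower. CDH1 was among those called, at 7.42 FPKM at 0 h and 26.3 at 24 h. Of the 4 fibroblast markers, COL1A1 alone passed the filter, at 1.92 FPKM at 0 h and 6.87 at 24 h, and was called higher. All 8 genes of a hypoxia list (among them NDRG1 and ANKRD37) were higher at 24 h, with a median log2 fold change of 3.39.

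After 24 h at 1% O2 most of the repair genes were lower and none was higher. All 37 passed the filter, and 28 were called lower than at 0 h at a limma adjusted p under 0.01 over all gene names, where 23.2% of all gene names were called lower. No member was called higher, against 18.3% of all gene names. By the stricter rule, which also asks for more than a 2-fold change, 13 were lower (9.51% of all gene names) and 0 were higher (8.76%). The median log2 fold change of the 37 was -0.79, and that of all gene names was -0.05. When FPKM was rescaled to TPM over all transcripts, very short ones included, these medians became -1.51 and -0.78, the calls over all gene names went from 3874 lower and 3053 higher to 4195 and 251, and 28 members were still called lower. The 24 h libraries lay wholly below the 0 h libraries for 30 members, against 32.8% of all gene names, and wholly above for 1, against 27.6%. Added together, the 37 levels gave 744 ± 11.9 FPKM for the 0 h libraries, 745 ± 27.9 after 1 h, 740 ± 20.6 after 2 h and 408 ± 13.3 after 24 h (n = 3 each, ± SD).

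**Figure D1:**
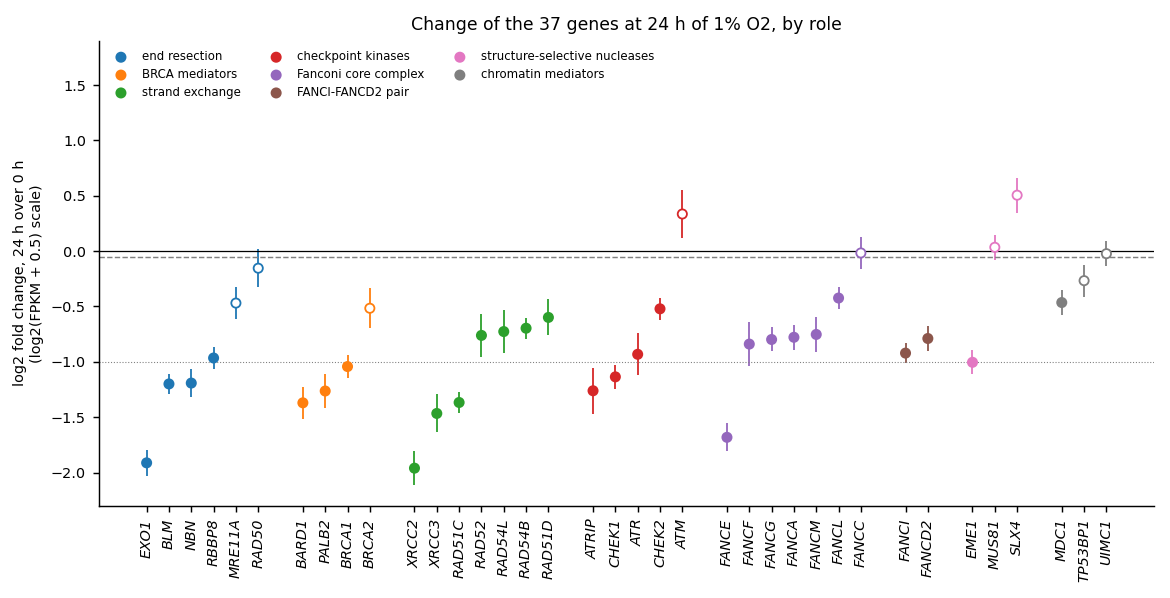
Log2 fold change of each of the 37 genes at 24 h over 0 h (y axis, log2(FPKM + 0.5) scale), grouped by role on the x axis; bars are standard errors, filled points have a limma adjusted p under 0.01, the dashed line is the median of all gene names (-0.05) and the dotted line a 2-fold fall. All filled points lie below 0, from -0.42 for FANCL to -1.96 for XRCC2, and the 9 open points are spread over 6 of the 8 roles.

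Of the 6 genes of DNA end resection, 4 were lower. EXO1, the exonuclease of long-range resection (chr1:242011269-242058450, GRCh37), fell furthest among them. Its level was 25.7, 26.7 and 25.3 FPKM in the 0 h libraries and 6.70, 6.23 and 6.60 at 24 h. The 24 h values were tightly grouped at 25.1% of the mean at 0 h, with a log2 fold change of -1.91 (limma, SE 0.12, adjusted p = 2.7e-07). BLM, the helicase that unwinds resected and joined strands, read 12.2, 12.4 and 12.04 FPKM at 0 h and 5.18, 5.15 and 4.77 at 24 h, with a log2 fold change of -1.20. NBN and RBBP8, which encode the damage-sensing subunit of the MRN complex and its partner CtIP, had log2 fold changes of -1.19 and -0.97 and were also called. The other subunits of MRN were not called. The nuclease gene MRE11A read 7.24, 7.25 and 7.13 FPKM at 0 h and 3.91, 5.52 and 5.99 at 24 h, groups that do not overlap, with a limma adjusted p of 0.0166. RAD50, the tethering subunit, read 22.8, 24.5 and 25.5 FPKM at 0 h and 15.7, 21.9 and 29.7 at 24 h. Its 24 h libraries fell on both sides of the 0 h values, and the adjusted p was 0.46.

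The BRCA mediators moved together in 3 of 4 cases. BARD1, the obligate partner of BRCA1, read 8.65, 8.35 and 7.07 FPKM at 0 h and 2.95, 2.35 and 3.10 at 24 h, a log2 fold change of -1.37. PALB2, which bridges BRCA1 and BRCA2, went from 7.20 ± 0.209 to 2.73 ± 0.523 FPKM (n = 3 each, ± SD), a log2 fold change of -1.26. BRCA1 read 15.8, 16.1 and 15.4 FPKM at 0 h and 7.51, 8.22 and 6.58 at 24 h, a log2 fold change of -1.04 (limma adjusted p = 7.5e-06). These 3 genes had 24 h values well under every 0 h value. BRCA2, which acts with PALB2 before strand exchange, was among the lowest in level, at 1.32, 1.77 and 2.09 FPKM at 0 h and 1.24, 0.734 and 1.20 at 24 h. It missed the threshold (log2 fold change -0.52, limma adjusted p = 0.0296), although its groups did not overlap. At such levels the added 0.5 FPKM understates a change.

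Every gene of strand exchange was called lower, 7 of 7, as was the FANCI-FANCD2 pair, 2 of 2. XRCC2, which assists strand exchange (chr7:152341861-152373278, GRCh37), had the largest fall of the 37. Its level was 9.41, 7.95 and 8.59 FPKM at 0 h and 1.57, 1.99 and 2.00 at 24 h, or 21.4% of the mean at 0 h, with a log2 fold change of -1.96 (limma, SE 0.15, adjusted p = 1.3e-06). XRCC3 and RAD51C, which also assist strand exchange, followed. RAD51C was the most abundant of the 37 genes, with 95.7, 80.9 and 86.0 FPKM at 0 h and 34.1, 35.3 and 31.3 at 24 h, a log2 fold change of -1.37. XRCC3 went from 20.2 ± 0.451 to 7.20 ± 2.33 FPKM (n = 3 each, ± SD), a log2 fold change of -1.47. The remaining members changed by less than 2-fold. The motor protein genes RAD54B and RAD54L had log2 fold changes of -0.70 and -0.73, the annealing factor RAD52 of -0.76 and RAD51D, another gene of strand exchange, of -0.60. Of these, RAD51D, RAD52 and RAD54L lost the call when single libraries were left out, with adjusted p up to 0.036. RAD51D also shares its Cufflinks locus with RFFL and a read-through transcript of both, and the split of reads between them is uncertain. RBBP8, RAD52, RAD54B, ATRIP, CHEK1, FANCG and FANCD2 likewise share a locus with other gene names.

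**Figure D2:**
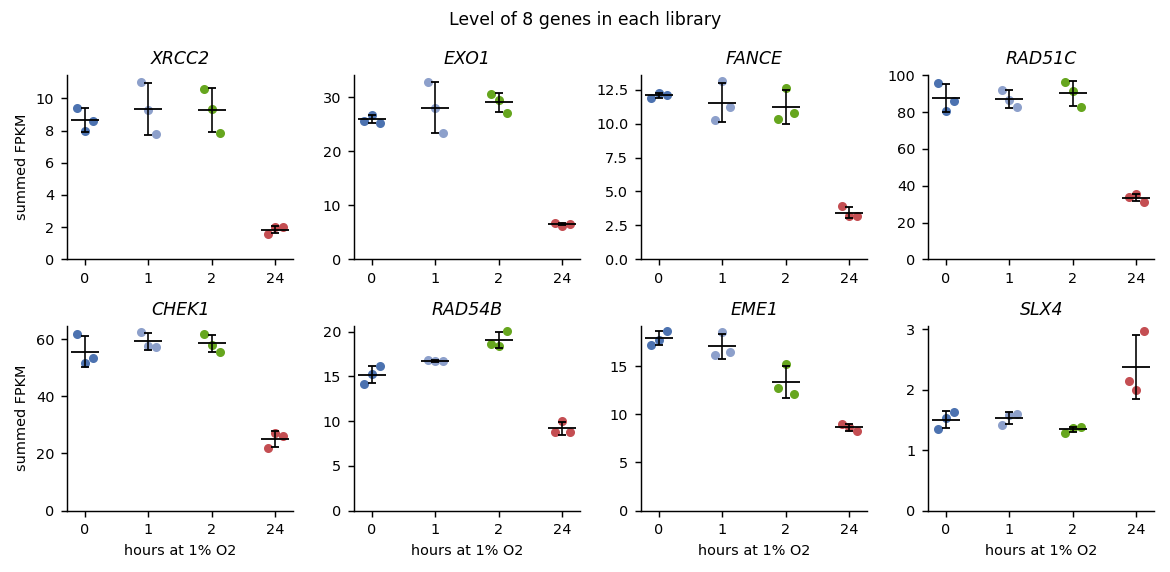
Summed FPKM (y axis, from 0) of 8 genes in each library at 0, 1, 2 and 24 h of 1% O2 (x axis); points are libraries, and the line and bar give mean and SD of 3. XRCC2, EXO1, FANCE, RAD51C, CHEK1, RAD54B and EME1 have all 24 h libraries below all 0 h libraries, and SLX4 has them above.

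Among the checkpoint genes 4 of 5 were lower, and they were those of the ATR branch together with CHEK2. CHEK1, the effector kinase of ATR (chr11:125495058-125546150, GRCh37), read 62.0, 51.7 and 53.3 FPKM at 0 h and 21.8, 27.2 and 26.2 at 24 h, a log2 fold change of -1.14 (limma, SE 0.11, adjusted p = 4.1e-06). ATRIP, which brings ATR to single-stranded DNA, read 13.5, 11 and 11.7 FPKM at 0 h and 3.17, 4.93 and 6.66 at 24 h, a log2 fold change of -1.26. ATR itself had a log2 fold change of -0.93 and CHEK2, the effector kinase of ATM, of -0.52. ATM showed no such fall. Its level was 5.40, 4.99 and 5.18 FPKM at 0 h and 4.45, 7.13 and 9.26 at 24 h, with overlapping groups and an adjusted p of 0.21.

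Of the 7 Fanconi core genes 6 were called lower, and so were both genes of the FANCI-FANCD2 pair that the core complex marks with ubiquitin. FANCE, the core subunit that contacts FANCD2, read 11.9, 12.3 and 12.1 FPKM at 0 h and 3.91, 3.23 and 3.17 at 24 h, a log2 fold change of -1.68 (limma, SE 0.13, adjusted p = 1.0e-06). FANCA, FANCG, FANCF and FANCM lay close to one another, with log2 fold changes of -0.78, -0.80, -0.84 and -0.75. FANCL, the ubiquitin ligase of the complex, changed least of those called, at -0.42. FANCC was not called, at 8.69 ± 0.999 FPKM at 0 h and 8.61 ± 1.31 at 24 h (n = 3 each, ± SD). FANCI read 59.9, 66 and 64.3 FPKM at 0 h and 31.8, 35.1 and 32.9 at 24 h, and FANCD2 read 27.1, 26.1 and 23.0 and then 13.7, 13.8 and 15.9. The log2 fold changes of this pair were -0.92 and -0.79. FANCE, FANCF and FANCL were less firm than the other core genes: FANCE and FANCL lost the call when class = transcripts alone were summed (adjusted p = 0.0935 and 0.0636), and FANCF and FANCL with some single libraries left out.

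The nucleases and chromatin mediators were the roles in which most genes were not called. EME1, the partner subunit of MUS81, read 17.2, 17.7 and 18.7 FPKM at 0 h and 9.01, 8.70 and 8.25 at 24 h, a log2 fold change of -1.004. MUS81, the catalytic subunit, stood at 13.8 ± 0.782 and 14.2 ± 2.07 FPKM (n = 3 each, ± SD). SLX4, the scaffold that holds several nucleases, was the 1 member whose 24 h libraries all lay above those of 0 h, at 1.34, 1.54 and 1.63 and then 2.15, 1.99 and 2.97 FPKM. Its limma adjusted p of 0.0163 missed the threshold of 0.01. MDC1, which binds phosphorylated histone H2AX, was called lower at -0.46, and lost the call in 4 of the fits that left out 1 library. The table also holds 7 copies of MDC1 on alternate haplotypes of chromosome 6, which are listed at 0 and leave its value unchanged. TP53BP1 and UIMC1, which encode 53BP1 and RAP80 and act on ubiquitin marks around a break, were not called at the level of the gene.

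At the early times no member was called. At 1 h the count was 0 of 37 in either direction, with 0 at an unadjusted p under 0.05, and of all gene names limma called 0% lower and 0.006% higher. The 1 h libraries lay wholly above those of 0 h for 6 members (6.36% of all gene names) and wholly below for 0 (7.33%). At 2 h limma again called 0 members, 3 had an unadjusted p under 0.05, and 0% of all gene names were called lower and 0.024% higher. Those 3 were EME1, RAD54B and FANCD2. EME1 read 12.7, 15.2 and 12.1 FPKM at 2 h, all under its 0 h values, a log2 fold change of -0.41 with an adjusted p of 0.126. RAD54B read 18.7, 18.4 and 20.1 FPKM at 2 h, all over its 0 h values of 14.2, 15.3 and 16.2, a log2 fold change of 0.32 with an adjusted p of 0.175. The 2 h libraries lay wholly above those of 0 h for 6 members (12.2% of all gene names) and wholly below for 5 (13.1%).

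The 24 h libraries were also set against those of 2 h. In that test 26 members were lower at 24 h (20.3% of all gene names) and 1, SLX4, was higher (16.3%), with a log2 difference of 0.62 and an adjusted p of 0.0056. Both comparisons use the same 24 h libraries. For 5 members, BLM, EXO1, MRE11A, RAD54B and RBBP8, every 2 h library lay above and every 24 h library below the 0 h values, a pattern found in 2.37% of all gene names.

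Most related repair and checkpoint genes that are not among the 37 were also called lower at 24 h. Of 46 other genes of recombination, the Fanconi pathway and the checkpoints, 26 were called lower and 2 higher, with a median log2 fold change of -0.70. The largest falls were those of TIPIN, CLSPN and CDC25A, at -2.29, -2.27 and -2.25; the first pair protects stalled forks and serves CHEK1 activation, and CDC25A is a phosphatase that CHEK1 restrains. Of 11 genes of non-homologous end joining, the route that ligates ends without a template, 7 were lower and 0 higher (median -0.67), DCLRE1C most at -1.28. Of 16 targets of p53, 9 were higher and 1 lower (median 0.69), with CDKN1A, the inhibitor of cyclin-dependent kinases, at 1.51. Genes of S phase moved with them. Of 15 such genes, 14 were lower and 0 higher, with a median of -1.46 and CCNE2 lowest at -2.49, while MKI67 was not called; of 10 genes of G2 and mitosis 5 were lower (median -0.38). In bulk RNA, fewer cells of one cycle phase and less RNA per cell cannot be told apart. By flow cytometry, the study found the cell cycle profile not appreciably different under hypoxia. It reports that proliferation and apoptosis were not significantly affected at 24 h. The part of the cell cycle in the changes of the repair genes was not tested here.

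The promoters of the members were read for words that occur in such genes. RefSeq promoter windows (GRCh38.p14, from 250 bases before to 50 after the annotated start, 300 in all) were matched for 34 of the 37 genes by symbol; NBN, RAD54B and FANCI were not matched. An E2F-type word (TTTCCCGC, TTTCGCGC, TTTGCCGC or TTTGGCGC, on either strand) stood in the windows of 5 genes, or 14.7%, against 3.99% of 27305 genes. E2F factors switch on genes for S phase. The 5 stretches are shown because they include the promoters of XRCC2 and EXO1, the most lowered of the 37; capitals mark the word, which reads on the opposite strand in all but EXO1.
XRCC2 (chr7:152676102-152676131, minus strand): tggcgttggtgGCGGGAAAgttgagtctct
EXO1 (chr1:241848197-241848226, plus strand): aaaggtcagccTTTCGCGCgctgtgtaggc
FANCD2 (chr3:10026424-10026453, plus strand): cgtcgggcctgGCGGGAAAgtcgaaaacta
FANCA (chr16:89816801-89816830, minus strand): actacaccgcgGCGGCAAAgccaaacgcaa
FANCC (chr9:95317863-95317892, minus strand): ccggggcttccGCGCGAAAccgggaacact
Of these, 4 were called lower at 24 h and FANCC was not, where 28 of the 37 members were called lower. The CCAAT word stood in the windows of 16 genes (47.1%, against 39.7% of all genes), 12 of them called lower. The core of the hypoxia response element (ACGTG or GCGTG, either strand) stood in 28 (82.4%, against 52.4%), 21 of them called lower. A match is a word in a window and says nothing of binding.

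Transcripts were then split by type, taken from GENCODE release 44 through the nearest annotated transcript: coding, noncoding (retained intron, nonsense-mediated decay and other types without a full reading frame) or no type. Of the 779 transcripts, 407 were coding, 236 noncoding and 136 without a type. The summed coding level of the 37 genes went from 582 ± 13.5 FPKM at 0 h to 295 ± 2.54 at 24 h, and the noncoding level from 114 ± 12.8 to 85.4 ± 12.1 (n = 3 each, ± SD). In each library the noncoding share of the sum was 14.3%, 17.4% and 14.3% at 0 h and 18.4%, 22.9% and 21.4% at 24 h. The retained-intron share was 3.58%, 3.30% and 3.18% at 0 h and 6.27%, 7.24% and 7.06% at 24 h. In both measures the groups do not overlap, and the noncoding means at 1 h and 2 h were 15.6% and 14.8%.

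**Figure D3:**
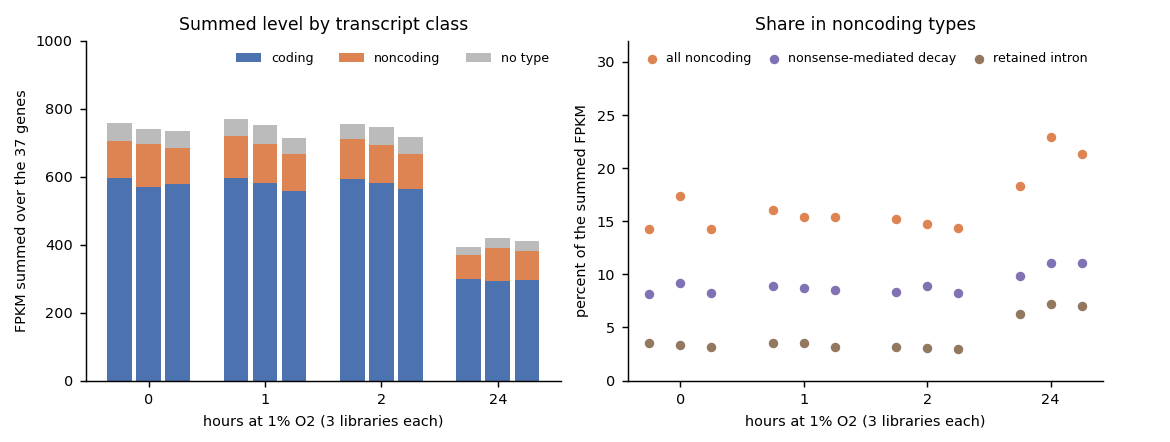
Left, FPKM summed over the 37 genes (y axis, from 0) in each of 12 libraries, split into coding, noncoding and untyped transcripts; right, percent of that sum in noncoding, nonsense-mediated decay and retained-intron transcripts. The 0, 1 and 2 h libraries stand between 714 and 769 FPKM and the 24 h libraries between 394 and 420, and retained-intron shares at 24 h are 6.27% to 7.24%.

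Measured on coding transcripts alone, 26 of 37 genes were called lower at 24 h (27.1% of 11643 gene names) and 0 higher (20.5%). TP53BP1 was called on its coding transcripts and not as a whole gene. Its coding level was 10.3, 12.04 and 12.8 FPKM at 0 h and 6.02, 7.57 and 8.66 at 24 h, a log2 fold change of -0.63 (limma, SE 0.16, adjusted p = 0.0035), while the gene as a whole went from 12.9 ± 1.10 to 10.7 ± 1.36 FPKM (n = 3 each, ± SD) with an adjusted p of 0.14. NBN kept 32.6% of its coding level, from 19.8 ± 1.45 to 6.47 ± 2.01 FPKM (n = 3 each, ± SD), against 43.2% for the gene. FANCD2, CHEK2 and RAD52 were called for the gene but not for coding transcripts. In these genes much of the FPKM has no coding type, with 64.2% of FANCD2 and 41.7% of CHEK2 without any type.

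Gene by gene, few shares of noncoding RNA passed the test. Of 34 members with noncoding transcripts, 2 gained noncoding share at a limma adjusted p under 0.05 (3.31% of 9716 gene names) and 0 lost it (1.1%). The median change was 3.48 percentage points, against 0.35 over all gene names, and 24 members had a positive and 10 a negative change. The 24 h libraries lay wholly above those of 0 h in 7 members (14.2%) and wholly below in 2 (7.61%). TP53BP1 gained most, from 12.2%, 8.17% and 7.94% at 0 h to 35.0%, 29.6% and 27.7% at 24 h, a gain of 21.4 points (limma, SE 2.46, adjusted p = 0.0026). All 11 alternatives kept this call. NBN went from 38.9%, 41.6% and 39.1% to 61.8%, 56.2% and 47.9% (adjusted p = 0.039). The gain of NBN lies in 1 class j transcript: without class j it was -0.32 points, and leaving out any of 5 libraries, or adding a term for the replicate number, also ended the call. FANCA, FANCL, MUS81, RAD52 and UIMC1 had non-overlapping higher shares with adjusted p of 0.11 to 0.54.

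**Figure D4:**
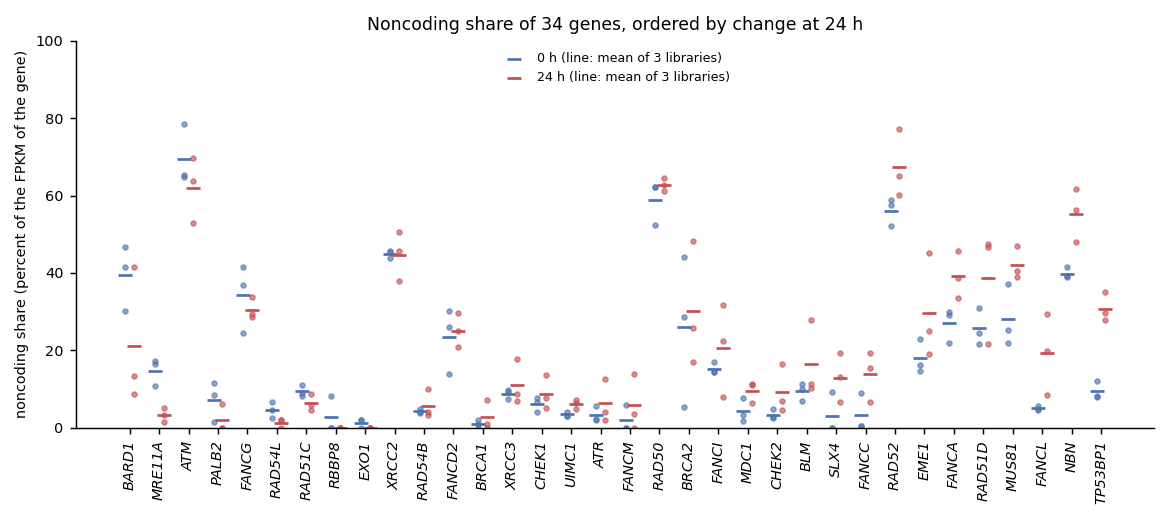
Noncoding share (y axis, percent of the FPKM of the gene) of 34 genes at 0 h and 24 h, ordered by change; points are libraries and lines are means of 3. TP53BP1 and NBN, at the right, are the 2 genes called, and most others have overlapping points.

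Taken as a type of its own, the retained-intron share was tested in 28 members. TP53BP1 gained (3.05% of 6794 gene names), with 0.777%, 2.40% and 4.09% at 0 h and 10.9%, 11.6% and 14.1% at 24 h, and an adjusted p of 0.0068. RAD50 lost (0.5%), from 2.11% to 0.244% of its FPKM. The 24 h libraries lay wholly above in 7 members (16.6%) and wholly below in 1 (5.14%). The 7 were EME1, FANCI, MUS81, RAD52, RAD54B, TP53BP1 and UIMC1. The median change of 2.55 points compares with 0.45 over all gene names. The nonsense-mediated decay share was tested in 26 members. It was gained in 0 (59 of 4657 gene names) and lost in 1 (40 of 4657), RAD54B, with a limma adjusted p of 0.0144. The median change was 0.25 points, with 13 members positive and 13 negative.

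The junctions that are read through are given for TP53BP1, where the share was called, and for FANCI, where a whole intron is kept; positions are GRCh37, exon letters are in lower case and intron letters in capitals. In TP53BP1 the retained-intron transcript ENST00000476454 begins inside intron 21 of 27 (chr15:43708615-43712502, 3888 bases, minus strand), holds its last 800 bases and runs through the acceptor. In FANCI, ENST00000566895 holds all 1300 bases of intron 16 of 37 (chr15:89825067-89826366, plus strand).
TP53BP1 acceptor (chr15:43708600-43708629): CTTTCCACCCCCCAGgagtggtgaaaggac
FANCI donor (chr15:89825052-89825081): agctatgtttgccaaGTATGTAGCATCTTT
FANCI acceptor (chr15:89826352-89826381): CTATTTCTGAGCTAGccagcttgatgcccg
These introns start or end in the usual GT and AG. The TP53BP1 transcript stood at 0.0910, 0.121 and 0.235 FPKM at 0 h and at 1.01, 0.840 and 0.961 at 24 h, higher in every 24 h library than in any 0 h library. The FANCI transcript went from 2.71, 2.88 and 2.76 FPKM to 1.87, 2.02 and 2.28. Its level was lower at 24 h while its share of FANCI was higher, at 4.39% ± 0.116 and 6.19% ± 0.650 (n = 3 each, ± SD), a change that was not called (adjusted p = 0.26).

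Single isoforms were tested as shares of their gene. The test took 248 transcripts of 35 members, and at 24 h 23 of them were called at a limma adjusted p under 0.05 (7.8% of 57066 transcripts), 9 gaining and 14 losing, in 13 members (27.1% of 10672 gene names). At 1 h and 2 h limma called 0. It depended on the libraries: without replicate 2 of 0 h 6 members were called, and without replicate 2 of 24 h 7. By limma's diffSplice 11 members were called (29.1% of 10672 gene names), 8 of them shared with the 13. The share test alone called RAD51C, NBN, RAD50, CHEK2 and PALB2, whose diffSplice adjusted p ran from 0.096 to 0.61.

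In TP53BP1 the main coding transcript ENST00000382044 held 80.3%, 81.8% and 79.9% at 0 h and 47.1%, 52.9% and 55.6% at 24 h, a loss of 28.8 points (limma adjusted p = 0.00068). The retained-intron transcript rose from 1.13% ± 0.491 to 8.92% ± 1.75, and ENST00000411772, typed as nonsense-mediated decay, from 1.76% ± 3.05 to 16.5% ± 7.17 (n = 3 each, ± SD). The last was listed at 0 in 2 of the 3 libraries at 0 h. Summed over all its decay transcripts, TP53BP1 held 11.4%, 3.68% and 2.99% at 0 h and 24.1%, 15.5% and 9.85% at 24 h. These groups overlap, and the change was not called (limma adjusted p = 0.18).

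By share, RAD51C exchanged coding forms of different length, a change that diffSplice did not call (adjusted p = 0.61). The transcript ENST00000337432, of 1322 bases, held 52.8%, 53.2% and 50.1% at 0 h and 39.4%, 33.0% and 31.3% at 24 h. The short form ENST00000421782, of 565 bases, held 23.7%, 22.6% and 28.4% and then 49.2%, 44.5% and 51.2%, a gain of 23.4 points (limma adjusted p = 0.0018). In FPKM both were lower at 24 h, the long form at 11.6 against 45.6 and the short form at 16.2 against 21.8. At 2 h the short form already held 34.7%, 35% and 36.3%, above every 0 h value, with an adjusted p of 0.45.

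UIMC1 did not pass the test as a gene (adjusted p = 0.87) but changed in its forms. The coding transcript ENST00000511320 went from 34.6% ± 9.92 to 60.2% ± 10.2, and the 619-base coding model ENST00000509236 from 19.6% ± 1.29 to 1.27% ± 2.202 (n = 3 each, ± SD). FPKM of models this short depends on how Cufflinks set their effective length.

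BRCA1 lost share from its 7094-base coding transcript ENST00000357654, with 27.2%, 35.6% and 37.0% at 0 h and 10.9%, 2.59% and 18.8% at 24 h. PALB2 drew together on its annotated form ENST00000261584, from 66.5% ± 8.12 to 91.2% ± 7.66 (n = 3 each, ± SD), while a class j form of it went from 14.4% to 0.0802%. CHEK1 gained in a 3681-base class j form, from 1.53%, 4.71% and 9.89% to 18.99%, 19.4% and 22.6%. NBN gained in a class j form nearest to the decay transcript ENST00000396252, from 36.7% ± 3.05 to 52.9% ± 7.41 (n = 3 each, ± SD). The other called transcripts belonged to CHEK2, EME1, FANCA, FANCL, RAD50 and RAD51D, with 1 more each in NBN and RAD51C. Among them ENST00000345365 of RAD51D went from 39.3% to 8.64% and ENST00000402135 of FANCL from 16.5% to 3.16%.

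**Figure D5:**
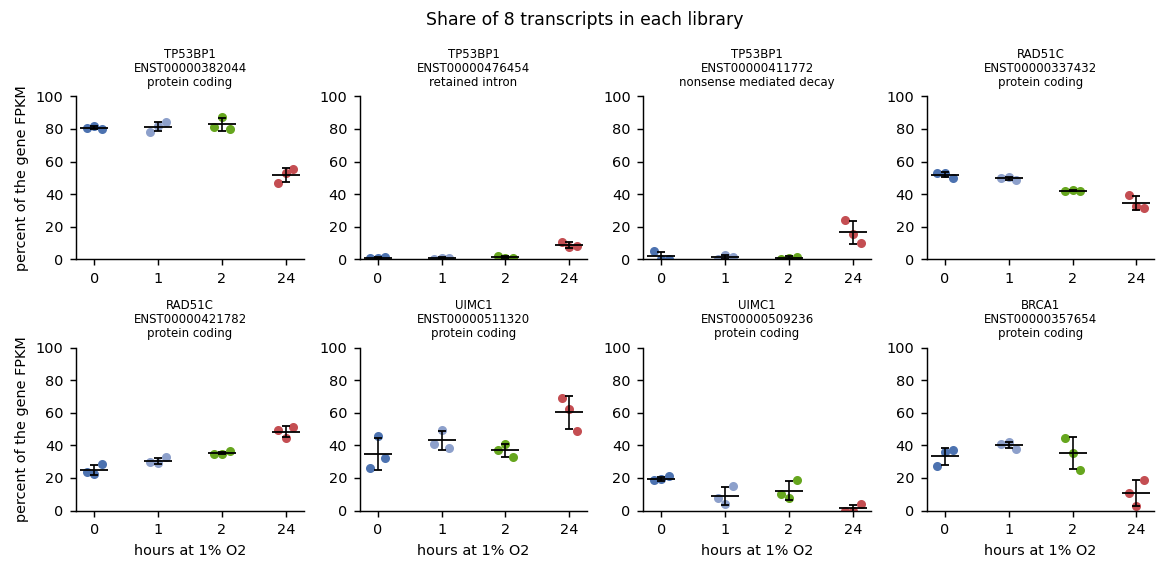
Share of 8 transcripts in the FPKM of their gene (y axis, percent) in each library at 0, 1, 2 and 24 h (x axis); points are libraries, and the line and bar give mean and SD of 3. The TP53BP1 coding transcript stands between 79.9% and 81.8% at 0 h and between 47.1% and 55.6% at 24 h, and the mean of the short RAD51C form passes that of the long form at 24 h.

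The transcript with the highest mean FPKM was another one at 24 h than at 0 h in 10 of 35 members, against 18.7% of 10680 gene names. In 2 of the 10, NBN and RAD52, it was coding at 0 h and noncoding at 24 h, against 1.98% of all gene names. In RAD52 the means were close: at 24 h the noncoding form stood at 0.802 FPKM and the former leader at 0.591. In ATM the leader changed from the 13147-base ENST00000278616 to the 740-base retained-intron model ENST00000527181; GENCODE 44 types the former as nonsense-mediated decay, so that ATM shares by type depend on the release. Grouped by start site, 9 of 31 members had a group whose share was called (16.5% of 8975 gene names). A start site is here where an assembled model begins, which in TP53BP1 can lie inside an intron, and promoter use was not tested.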

How the data were processed

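Poly(A) RNA of HCT116 cells was measured in 12 libraries. According to the study's methods and the processing notes, the authors called bases with CASAVA 1.8.2, aligned reads to hg19 (GRCh37) with Mapsplice, assembled transcripts with Cufflinks and merged them with Ensembl; the FPKM values were deposited per transcript and library. They were used as deposited, without rescaling.

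Columns were matched to samples by label, and no value column was left out. The 37 genes and all lists were chosen with earlier results of these data known. FPKM was summed per gene name over class = and j transcripts, and every member is named in the text. Transcripts named are the leading ones and those whose share was called. FANCI ENST00000566895 is neither, and was added because it keeps a whole intron. limma 3.58.1 (lmFit and eBayes with trend, R 4.3.3) was fitted over all 12 libraries and all gene names on log2(FPKM + 0.5), and on percent shares for isoforms and types, two-sided, with Benjamini-Hochberg adjustment. Transcript types came from GENCODE 44 (GRCh37 coordinates), a later annotation than the one merged. Fold changes are on the log2(FPKM + 0.5) scale, which understates changes of low genes. Tables and figures used Python 3.11.15. In simulated data of 16680 gene names 61% of 200 changed genes were recovered and 0 unchanged ones were called. The simulated isoform-share test recovered 92.5% of 200 changed genes and called 28 unchanged transcripts. The simulated noncoding-share test recovered 55.5% of 200 and called 5 unchanged genes. The data held many more calls at 24 h, 3874 lower and 3053 higher, so these rates may not carry over.

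A summed value over 3 against 3 libraries cannot give an exact permutation p below 0.1, so none is given. Alternatives covered pseudocount, filter, scaling, class code, length, replicate block and each left-out library.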

Additional observations from a re-analysis of the deposited data

Results flagged for a closer look

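At 24 h, 27 members differed from their 2 h level at a limma adjusted p under 0.01, a direct test between the hypoxic times. In 5 members every 2 h library lay above and every 24 h library below the 0 h libraries, and the opposite directions relative to 0 h were tested only through the difference of 24 h from 2 h. On the log2 scale this difference was -1.30 for BLM, -2.07 for EXO1, -0.75 for MRE11A, -1.01 for RAD54B and -1.15 for RBBP8, while none of the 5 was called at 2 h. Outside the summed classes, an antisense transcript of RBBP8 (1260 bases) had a mean of 0.265 ± 0.0521 FPKM at 24 h and 0.0428 ± 0.0385 at 0 h (n = 3 each, ± SD).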

How the results depend on the processing

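Between 22 and 28 members were called lower, and 0 higher, under every alternative. The count was 28 under the other pseudocounts, scalings and length limits, 24 with no filter, 23 with class = alone and 22 with the 6 libraries alone, and 23 to 27 with a library left out. With TPM over all transcripts 28 were lower by over 2-fold; left-out libraries gave 12 to 15. The median of the members, -0.79, was -0.81 with a pseudocount of 0.1, -0.77 with 1, -0.75 under median-of-ratios scaling, -1.51 and -0.90 with TPM over all transcripts and those of at least 300 bases, -0.88 with transcripts above 0.5 FPKM, and -0.83 to -0.78 with a library left out. RAD51D lost its call in 14 of 24 alternatives, RAD54L in 8 and RAD52 in 7.

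Of the uncalled members, BRCA2, MRE11A and TP53BP1 stayed negative under every alternative, and MRE11A was called lower in 3 of 24. The other uncalled members changed sign in at least 1. FANCC was at 0.021 and UIMC1 at 0.016 under median-of-ratios scaling, and at 0.094 and 0.20 with class = alone. ATM, MUS81 and SLX4 were at -0.43, -0.76 and -0.13 with TPM over all transcripts. MUS81 was at -0.056 with TPM from 300 bases and -0.022 with transcripts above 0.5 FPKM. With a library left out, FANCC ran from -0.13 to 0.074, MUS81 from -0.073 to 0.12, RAD50 from -0.38 to 0.073 and UIMC1 from -0.084 to 0.076.

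Members gaining noncoding share numbered 5 by the log2 ratio of noncoding to coding FPKM, 1 with class = alone (NBN at -0.319 points), 1 by retained introns alone, where 1 lost, and 1 to 2 with a library left out, where 0 to 1 lost. The median change was 2.74 to 4.56 points, highest without 0 h replicate 2. Members with a changed isoform numbered 6 to 15. The causes were not tested.

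Of 18 same-number pairs of libraries 10 correlated above 0.1 in their deviations, and 13 correlated best with their own number. Between 0 h and 1 h, 0 h and 2 h, and 1 h and 2 h, all 3 pairs did so, with mean r of 0.24, 0.25 and 0.30. With 24 h, it was 1 of 3 pairs for 0 h, 1 for 1 h and 2 for 2 h. Replicate numbers thus tied the early libraries together, and the main fit had no replicate block. With the replicate block 27 members were lower (RAD51D lost, adjusted p = 0.0113), 27 in coding FPKM, 1 gained noncoding share (NBN lost, adjusted p = 0.0673), and 11 had a changed isoform. Depth could not be judged from FPKM.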
